A study of Saccharomyces cerevisiae with 4 samples.

Results

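The small-subunit ribosomal protein genes of budding yeast were compared on 4 arrays between HSF1 wt cells and hsf1-R206S/F256S cells. Members were taken by name, as every spot whose gene symbol is RPS, a number, and then A, B or nothing. That gave 54 genes with 1 spot each, out of 6051 genes and unnamed spots. They are 23 pairs of an A and a B copy, 7 single-copy genes, and RPS23A, whose B copy is not analysed here.

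The arrays hold RNA of Saccharomyces cerevisiae cells kept at 39 °C for 15 min, with 2 arrays for each strain. HSF1 encodes the heat shock transcription factor, and the R206S/F256S allele changes 2 of its amino acids; the labels give no other genotype. Both strains were heated, so every difference is between strains at 1 temperature and none is an induction. The labels do not say that replicates were separate cultures, so the p-values measure only the spread between arrays, which may be technical.

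The small ribosomal subunit binds the messenger RNA and holds the decoding centre, where codon and anticodon are matched. Its proteins are made in the cytoplasm, imported into the nucleus, and assembled on ribosomal RNA before the precursor is exported. In yeast most of these proteins are encoded by a pair of near-identical genes left by an ancient genome duplication. Their genes are driven together by the factors Rap1, Fhl1, Ifh1 and Sfp1. Their transcripts are among the most abundant in growing cells, and a transient drop of these transcripts is a known part of the yeast response to heat and other stresses.

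Values are spot intensities in arbitrary units. Each array was quantile-normalized, and log2 was taken after an offset of 1.06 was added. A spot counted as above background on an array when its deposited value exceeded 3 noise SDs of that array. Between 24.9% and 40.6% of the spots passed in the wild type, and between 41.5% and 61.2% in the mutant. Noise was highest on wild-type replicate 2, with an SD of 5.18 against 2.80 to 2.98 on the replicates numbered 1 and 3.89 on mutant replicate 2. The part of this difference in sensitivity in the results was not tested. HSF1 itself read 37.1 and 0 in the wild type (replicates 1 and 2, the order used throughout) and 625 and 540 in the mutant. The level of a gene with a point allele does not check the labels, and the part of this difference in the results was not tested.

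The RPS genes stood higher in the mutant as a group. Of the 54 genes, 48 had the higher mean in mutant cells, against 50.6% of all genes tested. The median log2 difference, mutant minus wild type, was 1.34, against 0.01 over all genes. A 2-fold rule, which gives no p-value, asked for a difference of at least 2-fold and for no overlap between the arrays of the strains. It was met upward by 31 RPS genes, with 13.5% of all genes as the background, and downward by 2, with a background of 12.8%. The arrays of the strains did not overlap for 38 members in the upward direction (background 21.2%) and for 3 in the downward direction (background 19.3%).

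No single gene passed limma with Benjamini-Hochberg adjustment at 0.05, neither among the RPS genes nor among all 6051 (0%). At an unadjusted limma p below 0.05 there were 19 RPS genes, with a background of 11.7%. The lowest adjusted limma p of a member was 0.277, for RPS9B and RPS29B. RPS9B was above background on all 4 arrays, but RPS29B on 1 mutant array alone. Both wild-type values of RPS29B were negative as deposited and were set to 0, so they show no spread. Results for members are therefore values with their spread and not calls of single genes.

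The rank of each gene within its own array gave the same picture without any scaling between arrays. The median RPS gene lay at percentile 73.0 and 67.6 in the wild type. It lay at percentile 84.2 and 84.7 in the mutant, so both mutant arrays were above both wild-type arrays. Above percentile 90 there were 12 and 10 RPS genes in the wild type, against 22 and 21 in the mutant. RPS spots made up 1.05% and 0.891% of the summed positive signal in the wild type, against 2.67% and 2.55% in the mutant.

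**Figure D1:**
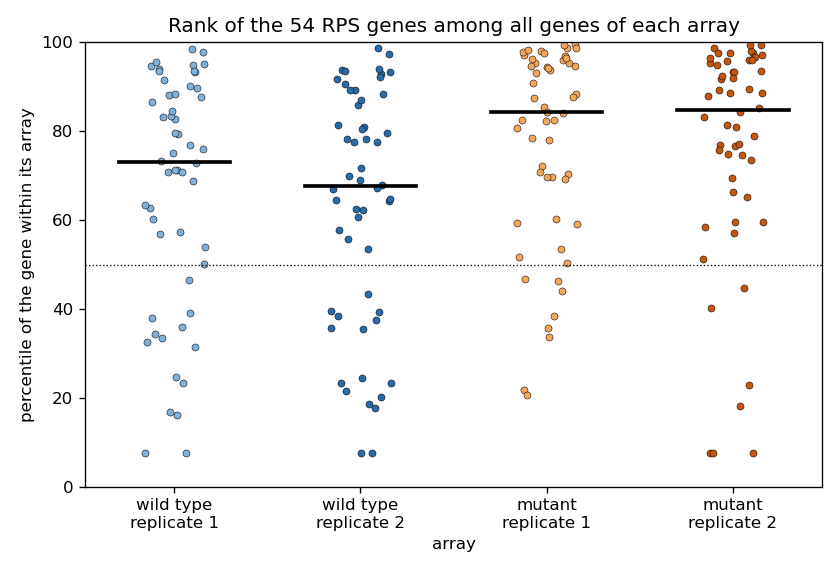
Percentile of each of the 54 RPS genes (points) among all genes of the same array (0 lowest, 100 highest), for the 2 wild-type and 2 mutant arrays; black bars are medians and the dotted line is the middle of all genes. The medians are 73.0 and 67.6 for the wild type and 84.2 and 84.7 for the mutant, and some members sit near the bottom on every array.

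Detection set how far a member could be read. 22 members were above background on all 4 arrays, and all 22 had the higher mean in mutant cells, against 44% of the genes detected that way. That held for the main values. With median scaling some of the 22 were lower, among them RPS20 (-0.23), RPS21B (-0.01) and RPS26A (-0.27). 14 of these 22 met the 2-fold rule upward, with a background of 9.64%, and 0 met it downward. Their median difference was 1.31, against -0.11 over all genes above background on 4 arrays. Another 28 members were above background on 1 to 3 arrays and 4 on no array. For 13 members no wild-type array but at least 1 mutant array was above background, and there was no member with the reverse. This was common over all genes too. Of 6051, 3425 had no wild-type array above background, 2223 had no mutant array and 2004 had neither. The 13 are therefore not read as a trait of the RPS genes. Of the 31 members that met the 2-fold rule upward, 21 had at least 1 array of each strain above background. The background among genes detected that way was 10%. The other 10 have no measured level in the wild type. A lower bound on the fold, taken against the background limit, exceeded 1 for 4 of them and 2 for RPS18A alone. With all such members at their bounds the RPS median was 0.88.

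**Figure D2:**
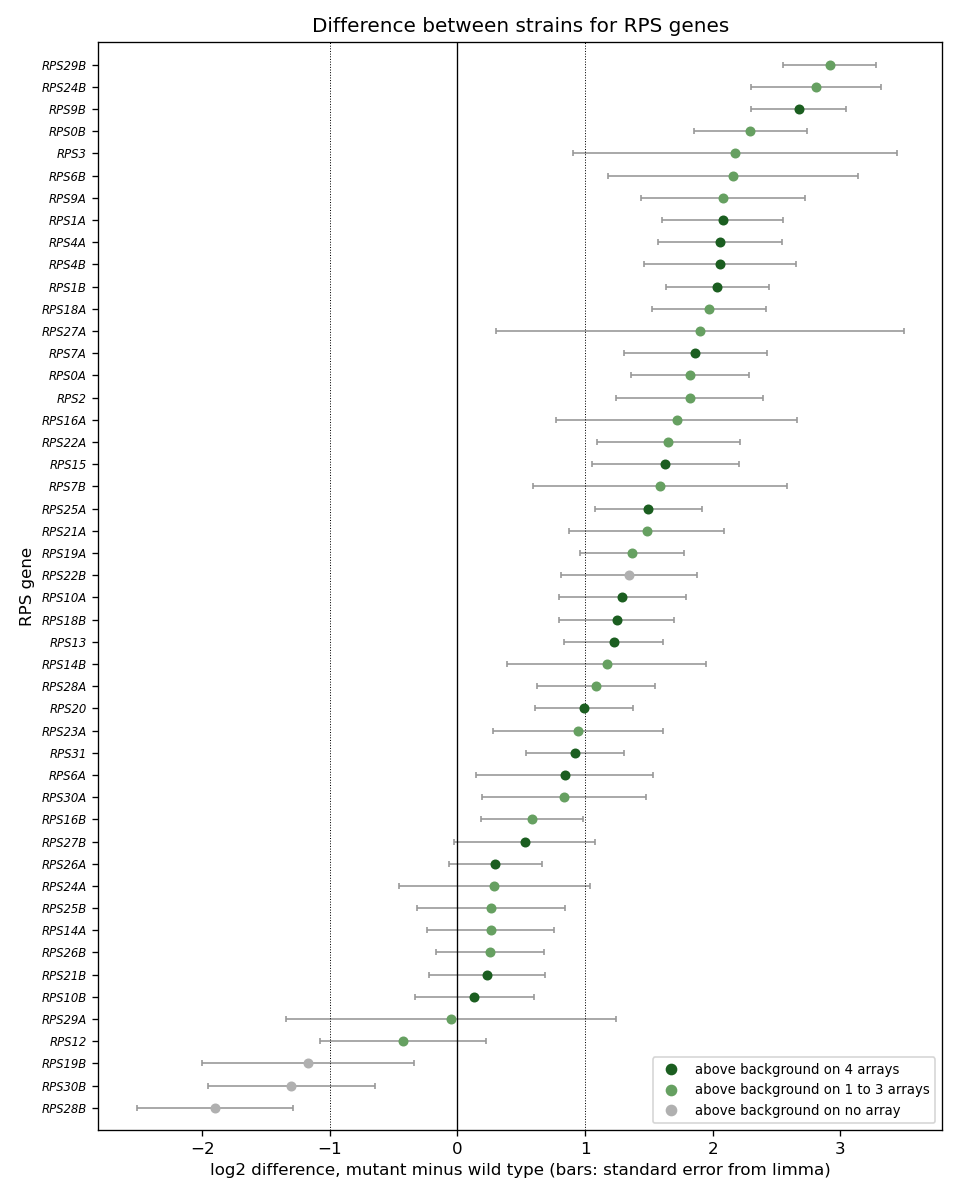
Log2 difference between mutant and wild type for 48 of the 54 RPS genes, with the standard error from limma as bars and dotted lines at 2-fold. The genes above background on 4 arrays (dark green, 18 drawn) all lie above 0; the 3 lowest genes (grey) were above background on no array, and fitted values of genes dim throughout a strain are not measured folds.

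The proteins around the messenger RNA entry channel and those known for decoding accuracy gave a median of 1.82 over 7 genes, of which 4 met the 2-fold rule upward. Regions of the subunit come from general knowledge and were set with the values known, so the differences between them were not tested. With dim members at their bounds the medians were 0.94 for the entry channel, 1.00 for the platform, 0.56 for the head and 1.22 for the body, so the order of the regions is not settled. Over all RPS genes 57.4% met the rule upward, against 13.5% of all genes. RPS9A and RPS9B encode a protein in which mutations alter translational accuracy. RPS9B (YBR189W) read 31.7 and 37.0 in the wild type and 231 and 217 in the mutant. It was 6.38-fold higher, a log2 difference of 2.67 (SE 0.37), and moved from percentiles 83.4 and 85.9 to 97.6 and 97.5 within the arrays. With median scaling the difference was 2.02. RPS9A (YPL081W) read 4.02 and 10.03 in the wild type, below background on both arrays, and 41.5 and 22.7 in the mutant. It was at least 1.93-fold higher.

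RPS2 and RPS3 line the entry channel and are single-copy genes. RPS2 (YGL123W), another gene with accuracy mutants, read 31.3 and 16.7 in the wild type and 111 and 62.7 in the mutant. The strains did not overlap, and the fold was 3.53. RPS3 (YNL178W) read 0.414 and 12.8 in the wild type and 18.1 and 20.5 in the mutant. Neither wild-type array was above background, and the bound was at least 1.23-fold higher. Its log2 difference of 2.17 (SE 1.27) was 0.55 when wild-type replicate 1 was left out and 3.23 when replicate 2 was, so its size is not determined.

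RPS23A encodes a protein of the decoding centre. It read 34.3 and 11.9 in the wild type and 35.9 and 44.9 in the mutant, a log2 difference of 0.94 (SE 0.66), which was 1.62 when wild-type replicate 1 was left out and 0.22 when replicate 2 was. RPS30A read 16.0 and 5.43 in the wild type and 16.2 and 19.4 in the mutant, so that wild-type replicate 1 and mutant replicate 1 were nearly alike. RPS30B read 4.22 and 1.83 in the wild type and 1.30 and 0 in the mutant. It met the 2-fold rule downward with no array above background, so no fold is given, and its difference had the opposite sign in the values as deposited.

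All 12 genes of the platform, the region beside the exit of the messenger RNA, had the higher mean in mutant cells. The share over all genes was 50.6%, and the platform median was 1.33. Of the 12, 6 met the 2-fold rule upward (50%, against 57.4% of all RPS genes and 13.5% of all genes). RPS1B (YML063W) read 248 and 214 in the wild type and 1103 and 819 in the mutant, 4.11-fold higher, or 2.04 (SE 0.40) in log2. RPS1A (YLR441C) read 38.8 and 28.0 in the wild type and 181 and 112 in the mutant, 4.22-fold higher. For both copies the mutant arrays were far above the wild-type arrays. With median scaling RPS1B differed by 0.84, below the 2-fold limit, while its rank went from percentiles 97.8 and 97.5 to 99.6 and 99.4.

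RPS0A and RPS0B encode a protein required for maturation of the small subunit. RPS0B (YLR048W) read 21.6 and 13.5 in the wild type and 95.6 and 81.3 in the mutant, 4.91-fold higher. RPS0A read 30.6 and 17.9 in the wild type and 92.9 and 79.0 in the mutant, 3.54-fold higher. Only wild-type replicate 1 was above background of the wild-type arrays for either copy. RPS21, whose protein binds that of RPS0, differed between its copies, as described with the pairs.

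RPS26A and RPS26B encode a protein at the exit channel that contacts the messenger RNA upstream of the start codon. These genes differed least among the platform pairs. RPS26A read 80.9 and 80.1 in the wild type and 97.6 and 101 in the mutant, a log2 difference of 0.30 (SE 0.36). RPS26B read 18.8 and 15.5 in the wild type and 16.98 and 24.8 in the mutant, with overlapping strains, 0.25 (SE 0.42). With median scaling the difference of RPS26A was -0.27, and that of RPS26B was -0.01 without mutant replicate 2, so neither direction is settled. RPS14A, for a protein whose excess represses splicing of the RPS14B transcript, read 20.8 and 16.1 in the wild type and 29.8 and 16.4 in the mutant. RPS14B read 9.38 and 1.86 in the wild type, below background, and 11.3 and 11.5 in the mutant.

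The 15 genes of the body of the subunit all had the higher mean in mutant cells as well, against 50.6% of all genes. Their median was 1.59. Of the 15, 11 met the 2-fold rule upward (73.3%, against 57.4% of all RPS genes and 13.5% of all genes). RPS4A (YJR145C) read 77.7 and 72.2 in the wild type and 425 and 235 in the mutant, 4.17-fold higher. RPS4B (YHR203C) read 43.5 and 47.4 in the wild type and 299 and 125 in the mutant, also 4.17-fold higher. The wild-type arrays lay close together for both copies and the mutant arrays apart, with mutant replicate 1 the higher. With median scaling the log2 differences of 2.06 became 1.17 for RPS4A and 1.40 for RPS4B, and RPS4B was 2.83 without mutant replicate 2.

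RPS7A read 52.4 and 23.2 in the wild type and 128 and 133 in the mutant, 3.64-fold higher, and its log2 difference went from 1.87 to 1.17 without wild-type replicate 2. RPS22A read 13.1 and 5.48 in the wild type and 27.2 and 31.3 in the mutant, 3.14-fold higher, with only 1 wild-type array above background.

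The single-copy gene RPS13 (YDR064W), for a protein of the body, read 19.2 and 24.0 in the wild type and 55.9 and 47.6 in the mutant. It was above background on every array and 2.33-fold higher, or 1.22 in log2, and 0.97 with an offset of 10. RPS6, whose protein is phosphorylated downstream of the growth-controlling kinase TOR, gave no clear reading. RPS6A read 25.4 and 27.6 in the wild type and 83.6 and 27.6 in the mutant, so that only mutant replicate 1 was high, and its difference of 0.84 was 0.06 without that array. RPS6B was above background on mutant replicate 1 alone. RPS24B read 1.85 and 0.845 in the wild type and 11.7 and 20.3 in the mutant. It had the second highest fitted difference of all members, 2.81 (SE 0.51), but its bound did not exceed 1 and no fold is given.

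Genes of the head of the subunit went both ways in the fitted values. Of 20 such genes, 15 had the higher mean in mutant cells (background 50.6%), and their median was 1.04. The 2-fold rule was met upward by 10 (50%, background 13.5%) and downward by 1 (background 12.8%). The 7 head genes above background on all 4 arrays differed by 0.13 to 1.63 in the main values. The direction was not kept by all of them. RPS20 differed by -0.23 with median scaling, and RPS10B by -0.20 without mutant replicate 2. RPS15 (YOL040C), a single-copy gene for a protein needed for export of the precursor subunit, read 105 and 78.4 in the wild type and 417 and 192 in the mutant. It was 3.09-fold higher, and its log2 difference of 1.63 (SE 0.58) was 0.72 with median scaling and 2.29 without mutant replicate 2. RPS18A read 8.13 and 13.9 in the wild type, below background, and 44.6 and 44.9 in the mutant, and was at least 2.78-fold higher. RPS18B read 44.1 and 26.8 in the wild type and 89.3 and 77.4 in the mutant, 2.37-fold higher, or 1.25 in log2, and 0.87 with median scaling and 0.83 without wild-type replicate 2. RPS18 encodes a protein at a bridge to the large subunit.

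RPS19A read 12.8 and 13.7 in the wild type and 30.0 and 42.8 in the mutant, 2.58-fold higher, or 1.37 in log2, and 0.98 with an offset of 10. RPS28A read 22.6 and 15.1 in the wild type and 33.4 and 49.0 in the mutant, 2.12-fold higher, but was under the 2-fold limit with median scaling (0.93), an offset of 10 (0.82), and when replicate 2 of the wild type (0.79) or of the mutant (0.82) was left out. RPS28B, whose protein regulates decay of its own transcript, read 5.10 and 5.26 in the wild type and 1.57 and 0 in the mutant. It met the 2-fold rule downward with no array above background, so no fold is given.

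RPS20 (YHL015W), a single-copy gene, read 400 and 478 in the wild type and 798 and 950 in the mutant, a log2 difference of 0.99 (SE 0.39), just under the 2-fold limit. Both mutant arrays were above both wild-type arrays, and the percentiles went from 98.6 and 98.9 to 99.4 and 99.5. With median scaling the difference was -0.23, so the direction of its intensity is not settled. RPS31 (YLR167W), which encodes a fusion of ubiquitin with a ribosomal protein, read 81.1 and 66.2 in the wild type and 150 and 130 in the mutant. Its log2 difference was 0.92 (SE 0.39), and 0.31 with median scaling. The polyubiquitin gene UBI4, which also codes for ubiquitin, read 104 and 100 in the wild type and 87.1 and 21.3 in the mutant. Its log2 difference of -1.21 (SE 0.83) was in the other direction and came mostly from mutant replicate 2. RPS12 (YOR369C) read 5.38 and 4.98 in the wild type and 6.56 and 1.76 in the mutant, above background on mutant replicate 1 alone.

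**Figure D3:**
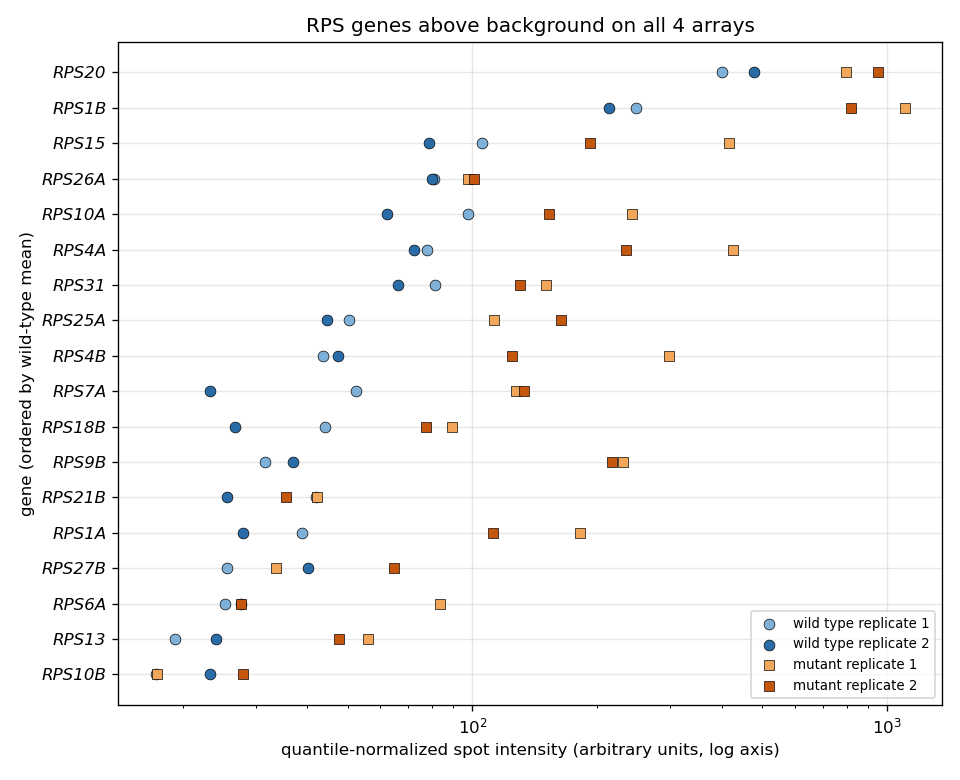
Normalized intensity (log axis) on each of the 4 arrays for 18 of the 22 RPS genes above background on all of them; circles are wild-type and squares mutant arrays. For 14 of the 18 drawn both mutant arrays lie to the right of both wild-type arrays; RPS6A, RPS10B, RPS21B and RPS27B overlap.

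The 7 single-copy genes and the 46 genes in pairs had close medians. The median log2 difference was 1.22 for the single-copy genes, with 4 of 7 past the 2-fold rule upward (57.1%) and 0 downward. It was 1.36 for the genes in pairs, with 27 of 46 past it upward (58.7%) and 2 downward. The shares over all genes were 13.5% upward and 12.8% downward. The difference between these medians is small beside the range of members, which ran from -0.43 to 2.17 and from -1.90 to 2.92, and it was not tested.

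Among the 23 pairs both copies had the higher mean in mutant cells in 18, and 1 copy in the other 5, among them RPS19, RPS28, RPS29 and RPS30. Both copies met the 2-fold rule upward in 7 pairs, 1 copy in 13 and neither in 3. Over all genes 50.6% had the higher mean in mutant cells and 13.5% met the rule upward. Those are shares of single genes and not of pairs. In each of the 5 split pairs at least 1 copy had no strain in which both arrays passed the background limit. Both copies were above background on all 4 arrays in 5 pairs, among them RPS1, RPS4 and RPS10. In the main values both copies were higher in the mutant in all 5, and in 3 both met the 2-fold rule upward. RPS10B differed by -0.20 without mutant replicate 2. Since the copies of a pair are close in sequence, signal may be shared between their spots.

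For each pair the log2 ratio of B to A was taken on every array and compared between strains. With 4 arrays the exact two-sided permutation test cannot give a p below 0.333, so no pair could pass 0.05. The arrays of the strains did not overlap in 11 of the 23 pairs, which then had that smallest p. The B copy exceeded the A copy in its difference in 7 pairs and the A copy exceeded the B copy in 16, with a median B minus A of -0.30. Leaving out replicate 2 of the wild type gave a median of -0.01, and leaving out replicate 2 of the mutant gave -0.67. It was -0.07 with no offset and -0.04 over bright genes, so a lead of the A copies is not settled.

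The copies moved together most closely in RPS4, RPS1 and RPS26. The B minus A differences were 0 (SE 0.23), -0.04 (SE 0.18) and -0.04 (SE 0.27). In RPS0 the ratio was closest between replicates, and B exceeded A by 0.47 (SE 0.05, exact permutation p = 0.333).

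The log2 differences of the copies lay more than 1 apart in 12 pairs, and 5 of these had both copies above background on both arrays of a strain. In the fitted values the A copy had the larger difference in these 5. That direction is not settled for RPS16 and RPS27. RPS10A, for a protein of the head near the entry channel, read 97.4 and 62.3 in the wild type and 242 and 153 in the mutant, 2.45-fold higher. RPS10B read 17.2 and 23.3 in the wild type and 17.3 and 28.0 in the mutant, so its strains overlapped. The B minus A difference was -1.16 (SE 0.85, exact permutation p = 0.667), and the ratio overlapped between strains. That difference was -0.50 with median scaling. Leaving out replicate 2 of the wild type gave -0.52, and leaving out mutant replicates 1 and 2 in turn gave -0.55 and -1.92. With median scaling RPS10A differed by 0.56, and by 0.86 without wild-type replicate 2.

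RPS25A, for a protein of the head that several viral initiation sites need, read 50.3 and 44.7 in the wild type and 113 and 163 in the mutant, 2.82-fold higher. RPS25B read 10.5 and 24.1 in the wild type and 16.5 and 22.7 in the mutant, with overlap. With median scaling RPS25A differed by 0.98. B minus A was -1.24 (SE 0.64, exact permutation p = 0.333). It was -0.46 without wild-type replicate 2, -1.85 without replicate 1 and -0.76 with median scaling, so its size is not settled. RPS21A read 17.3 and 6.43 in the wild type and 30.1 and 33.5 in the mutant, and RPS21B 41.9 and 25.7 in the wild type and 42.2 and 35.4 in the mutant. RPS21A was 1.48 higher in log2, and 0.98 with an offset of 10, 2.09 when wild-type replicate 1 was left out and 0.82 when replicate 2 was. B minus A was -1.25 (SE 0.36, exact permutation p = 0.333), and -0.80 with an offset of 10. For RPS21 and RPS25 the ratio of the copies did not overlap between the strains.

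RPS16A, for a protein whose tail reaches the tRNA, read 7.18 and 0.670 in the wild type, below background, and 9.18 and 14.04 in the mutant. RPS16B read 17.6 and 12.6 in the wild type and 23.6 and 22.4 in the mutant. Their B minus A difference was -1.13 (SE 0.96, exact permutation p = 0.667). It was -0.22 without wild-type replicate 2, -1.97 without replicate 1 and -0.27 with an offset of 10. At its bound RPS16A differed by 0, below the 0.59 of RPS16B, so which copy differed more is not settled. RPS27A read 17.6 and 0 in the wild type and 16.5 and 14.6 in the mutant, and RPS27B 25.6 and 40.2 in the wild type and 33.6 and 64.7 in the mutant. The B minus A difference of -1.37 (SE 2.45, exact permutation p = 1) rests on the 0 of RPS27A on wild-type replicate 2, since RPS27A differed by -0.17 without that array. B minus A was then 0.99, against -3.77 without replicate 1, and 0.72 with no offset.

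**Figure D4:**
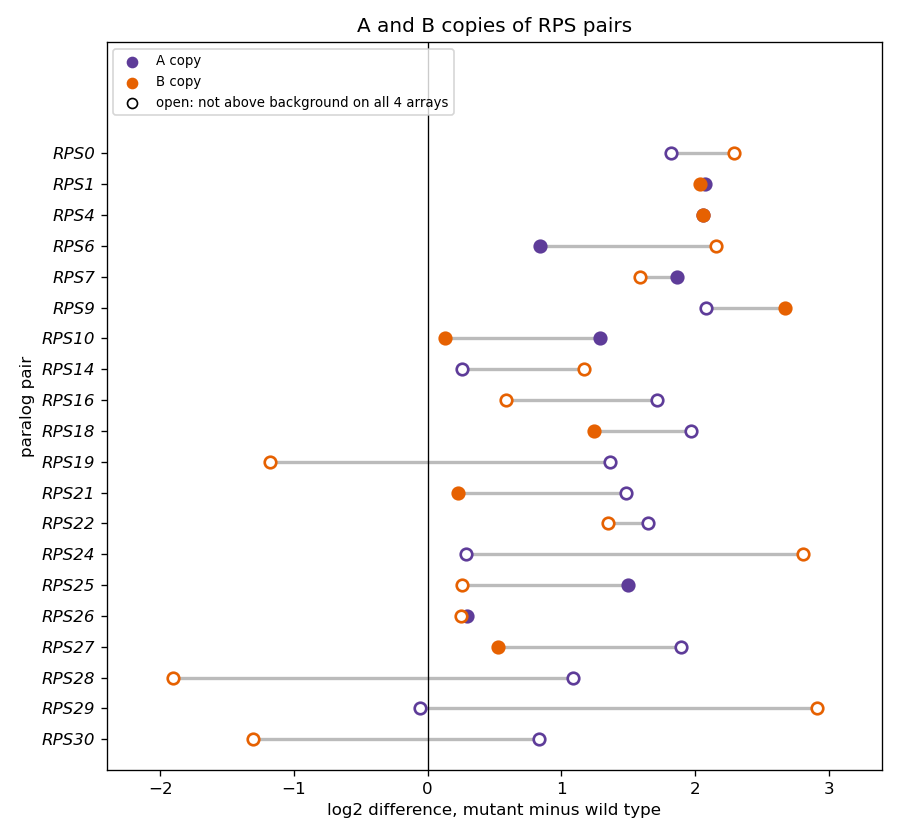
Log2 difference between mutant and wild type for the A and B copies of 20 of the 23 RPS pairs, joined by a grey line; filled points were above background on all 4 arrays and open points were not. Both copies lie above 0 in 16 of the 20 pairs drawn, and each copy below 0 is an open point.

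Replicates scattered more in the wild type. The median distance between replicate arrays over the 54 members was 0.62 in log2 for the wild type and 0.45 for the mutant. Wild-type replicate 1 was above wild-type replicate 2 for 36 members, and mutant replicate 1 above mutant replicate 2 for 29. Without wild-type replicate 2 the RPS median was 0.99 and 27 members met the 2-fold rule upward. Without wild-type replicate 1 the median was 1.43 with 33 members. Across the 54 members, which share arrays and background, the difference went with the mean level with a Spearman rho of 0.21 and a Pearson r of 0.31, given as a description.

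The large subunit gave similar values. Of 78 RPL and RPP genes, 65 had the higher mean in mutant cells (83.3%, against 50.6% of all genes). The 2-fold rule was met upward by 43 (55.1%, against 57.4% of the RPS genes and 13.5% of all genes). It was met downward by 2 (2.56%, background 12.8%). Their median was 1.22. A difference between the subunits was not tested. Some genes of the small and large subunit are neighbours in the genome and have kept that order in both duplicates. RPS16B lies beside RPL13A, with log2 differences of 0.59 and 2.47. RPS16A lies beside RPL13B, which differed by 0.79, while RPS16A had no measured level in the wild type. RPS9B and its neighbour RPL21A differed by 2.67 and 2.02, and RPS22A and its neighbour RPL39 by 1.65 and 1.10. RPS15 differed by 1.63 and its neighbour RPP2A by 0.34. RPL18B differed by 0.10, and RPS19B beside it was above background on no array. Neighbours thus included couples of like and of unlike size, and no test was made.

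Of 11 genes for proteins that bind the finished small subunit, 9 had the higher mean in mutant cells (81.8%, against 50.6% of all genes). The 2-fold rule was met upward by 4 (36.4%, background 13.5%) and downward by 0 (background 12.8%). No wild-type array was above background for 6 of the 11, and with dim genes at their bounds the list median of 1.00 became 0. ASC1, the RACK1 homologue and a core small-subunit protein without an RPS name, read 132 and 163 in the wild type and 444 and 388 in the mutant, 2.82-fold higher. TIF34, a subunit of initiation factor eIF3, read 31.4 and 25.5 in the wild type and 67.9 and 72.5 in the mutant, 2.43-fold higher. STM1, which clamps idle ribosomes, read 123 and 150 in the wild type and 317 and 240 in the mutant, 2.02-fold higher. With median scaling the log2 differences were 0.33 for ASC1, 0.98 for TIF34 and -0.04 for STM1, so the direction is not settled for STM1. STM1 was also under the 2-fold limit with cyclic loess (0.79), an offset of 10 (0.97), as deposited (0.68) and when replicate 1 of the wild type (0.82) or of the mutant (0.88) was left out. The fourth, RLI1, a ribosome recycling factor, was above background on 1 mutant array only.

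Assembly factors of the small subunit and ribosomal protein chaperones, listed together, were mostly too dim to size. Of 20 listed genes 14 had the higher mean in mutant cells (70%, background 50.6%). The 2-fold rule was met upward by 8 (40%, background 13.5%) and downward by 2 (10%, background 12.8%). However, 18 of the 20 had no wild-type array above background. The list median of 1.02 became 0 at the bounds. The 8 were YAR1, NOB1, PNO1, RIO1, RIO2, KRR1, PRP43 and RRB1, and the 2 were TSR2 and ACL4. RRB1 and ACL4 are among the chaperones and serve large-subunit proteins, so these shares are not those of small-subunit assembly factors alone. PNO1, needed for late cleavage of the small-subunit RNA, was at least 1.27-fold higher (0.15 in log2 without wild-type replicate 1), and the other 7 upward genes had no bound above 1. NOB1, the nuclease of that cleavage, read 0.787 and 0.612 in the wild type and 12.1 and 14.9 in the mutant. TSR2, which delivers the RPS26 protein, was above background on no array.

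Of 14 listed regulators of ribosomal protein genes, 4 had the higher mean in mutant cells (28.6%, background 50.6%), 3 met the 2-fold rule downward (21.4%, background 12.8%) and 0 upward (background 13.5%), and the median was -0.14. No wild-type array was above background for 6 of the 14, and the median at the bounds was 0. TOR1, a kinase of the growth-controlling complex, read 18.8 and 41.5 in the wild type and 9.79 and 15.3 in the mutant, 2.18-fold lower, or -1.12 in log2. It was under the 2-fold limit when wild-type replicate 2 (-0.57) or mutant replicate 1 (-0.88) was left out, with an offset of 10 (-0.78) and as deposited (-0.51). FHL1, which recruits the activator Ifh1 to these promoters, read 1.87 and 76.8 in the wild type and 0.868 and 0 in the mutant. It was above background on wild-type replicate 2 alone, so its size rests on that array. UTP22 was above background on no array.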

How the data were processed

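RNA abundance was measured on 4 arrays, 2 per strain. Each array carries labelled cDNA of 1 sample, made from total RNA with oligo(dT) and 33P-dCTP per the labels. The authors deposited linear spot intensity values, which include negative numbers and have similar means on every array. Nothing states the software, background method or array type, all not given in the sources used here. GEO's platform annotation, which can be old, gave 1 symbol for 5523 of 6084 spots, several for 0 and none for 561. A current RefSeq gene table matched 5523 of them and changed 0. Coordinates and sequences are not given here.

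limma 3.58.1 (R 4.3.3) quantile-normalized the arrays. Negative values became 0, log2 was taken after adding an offset of 1.06, the 5th percentile of positive values, and spots of a gene were averaged. The offset shrinks differences between dim positive values, but it keeps values set to 0, which were left out with no offset. With no offset RPS24B differed by 3.62 instead of 2.81, and RPS6B by 1.11 instead of 2.16. Changes of dim genes are thus not always understated. Printed intensities are normalized values without the offset, and folds come from log2 means with it. The noise SD of an array is the median size of its negative values divided by the normal quartile, and bright genes have a mean log2 level over 4 arrays above the mean limit. A gene above background on no array of a strain is given as "at least N-fold", against the higher of limit and own value per array. The number of arrays limits the precision.

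Strains were compared with limma (lmFit and eBayes, two-sided) over all genes, with 2 residual and 1.54 prior degrees of freedom. Genes given with every array's value were the 10 largest differences among members above background on both arrays of a strain, pairs over 1 apart with both copies so detected, single-copy genes, and members past the 2-fold rule downward. Some members that this rule takes are counted in all totals but not reported here by name. Other members were added to fill the regions of the subunit after their values were seen. Members and lists were chosen with earlier results of these data known. Alternatives varied the normalization, offset, filter, spots, replicate block, replicates and bounds. The procedure was also run on simulated data in which only bright spots were raised. That run does not check it for dim members or for the bounds.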

Additional observations from a re-analysis of the deposited data

How the results depend on the processing

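The RPS median (1.34) stayed above 0 under every alternative: 0.90 with median scaling, 1.602 as deposited, 0.83 with an offset of 10, 0.88 with dim genes at their bounds, and 0.99 to 1.47 when each array was left out. As deposited, the median of all genes was 0.63, so the RPS median exceeded it by 0.97. The RPS genes with the higher mean in mutant cells (48 of 54) numbered 45 with median scaling, 51 as deposited and 46 to 48 without 1 array. The number of RPS genes past the 2-fold rule upward was 21 with an offset of 10, 23 with median scaling, 39 as deposited and 27 to 36 without 1 array. With median scaling 22 of the main 31 were among the 23. Downward it was 1 with median scaling, 0 as deposited, with an offset of 10, over genes above background on both arrays of a strain and over bright genes, and 1 to 5 without 1 array. RPS30B (-1.30) was 0.064 as deposited. In pairs the median (1.36) was 0.96 with median scaling, 1.66 as deposited, 0.74 with an offset of 10, 0.71 at bounds and 0.89 to 1.68 without 1 array; for single-copy genes (1.22) it was 0.72 with median scaling. The RPL and RPP median (1.22) was 0.92 with median scaling, 1.55 as deposited, 0.93 with an offset of 10, 0.87 at bounds, 1.47 over genes above background on both arrays of a strain, 1.40 over bright genes and 1.02 to 1.43 without 1 array. The B minus A median (-0.30) was -0.069 with no offset, -0.043 over bright genes, -0.55 at bounds and -0.67 to -0.013 without 1 array; pairs with both copies higher were 11 over bright genes, where fewer pairs could be read.

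All genes past the 2-fold rule numbered 818 upward and 772 downward, against 1700 and 338 as deposited, 249 and 205 with an offset of 10, 469 and 228 over genes above background on both arrays of a strain, 283 and 220 over bright genes, and up to 1282 and 1394 without 1 array. The lowest counts without 1 array were 1049 upward and 999 downward. Regulators, assembly factors and binders past the rule (17) were 4 with an offset of 10, 7 over genes above background on both arrays of a strain and 4 over bright genes. limma called 0 genes at an adjusted p of 0.05, but 1 over genes above background on both arrays of a strain and 12 over bright genes, with 0 RPS genes in each. Deviations of same-numbered arrays correlated at 0.02 across genes. Of these 6051 genes, 2004 were above background on no array, so the value cannot decide whether the numbers pair the arrays. With the replicate block limma called 0 genes, with 510 against 710 at an unadjusted p below 0.05. Of the 54 members 41 kept their sign wherever they had a value, 38 higher and 3 lower; 37 of the 54 had one under all 13 alternatives and the others under at least 10, with bounds not counted. The cause of these shifts was not tested.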
